A study of Mus musculus with 6 samples.

Results

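The miRNAs described here come from the imprinted Dlk1-Dio3 locus on mouse chromosome 12 and were taken by name: miR-127-3p, miR-434-5p, miR-434-3p, miR-379-5p, miR-411-5p, miR-382-5p and miR-541-5p, 7 of the 1927 miRNA rows in the table. They were counted by small RNA sequencing in extracellular vesicles, the membrane-bound particles that cells shed, from the crushed femurs and tibias of untreated male Swiss-CD1 mice aged 8 weeks whose marrow had first been spun out. Small vesicles (sEVs) were collected at 100000 g on a cushion of 30% sucrose, and large vesicles (lEVs) were the pellet at 10000 g, with 3 libraries of each. Vesicle size, spin and cushion, which per the labels' protocol was used for sEVs alone, differ together between the fractions and cannot be told apart. Nothing in the labels tells whether a replicate was a separate animal or pool, and every p-value below measures no more than the spread among these 6 libraries, which could be technical.

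The locus is imprinted: Dlk1, Rtl1 and Dio3 are transcribed from the paternal chromosome, whereas the noncoding RNAs Meg3, Rian and Mirg and the miRNAs between them are transcribed from the maternal one. A first group of hairpins is read from the strand opposite Rtl1, a gene derived from a retrotransposon, and its miRNAs can direct cleavage of the Rtl1 messenger RNA because they match it in full. A second group, the miR-379/miR-410 cluster, is a long polycistron best known from neurons, embryonic tissue and placenta. A miRNA recognises its targets mainly through its seed, bases 2 to 8 from its 5′ end.

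The mature sequences are shown because the 7 differ in their seeds and because the sharpest contrast found below lay between a pair of close relatives. They were taken from RefSeq (GRCm38.p6), where all 7 had an entry, run 5′ to 3′, are all on the plus strand, and have the seed in capitals.
miR-127-3p: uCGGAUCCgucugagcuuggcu
miR-434-5p: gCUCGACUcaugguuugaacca
miR-434-3p: uUUGAACCaucacucgacuccu
miR-379-5p: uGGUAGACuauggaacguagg
miR-411-5p: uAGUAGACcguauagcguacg
miR-382-5p: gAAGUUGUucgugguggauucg
miR-541-5p: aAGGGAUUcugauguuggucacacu
No seed was shared within the 7. Among 1679 mature mouse miRNAs of that table, the seed of miR-379-5p was shared by miR-1193-5p and that of miR-411-5p by miR-7229-5p, and the other 5 seeds occurred once. miR-379-5p and miR-411-5p, both 21 bases long, had the same base at 14 positions. Counted from the 5′ end, with the base of miR-379-5p first, their differences were G2A, U9C, A10G, G12A, G13U, A15G and G20C, so the seeds differed by their first base alone. The median GC content of the 7 was 47.6%, against 45.5% over the 120 tested rows that could be matched to a single mature sequence, and the median length was 22 bases in both sets.

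In order of position (GRCm38), the hairpin of miR-127 lies at chr12:109592846-109592915 and that of miR-434 at chr12:109594506-109594599. Both lie inside the coding sequence of Rtl1, which runs on the minus strand, and are themselves on the plus strand. The 22-base stretches of the Rtl1 transcript (GENCODE M21) that pair with the 3 mature miRNAs follow, with the bases that face the seed in capitals. Each occurred once in the transcript, and no perfect complement of the other 4 miRNAs was found in it.
Rtl1 site of miR-127-3p, chr12:109592888-109592909, minus strand: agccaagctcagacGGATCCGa
Rtl1 site of miR-434-5p, chr12:109594528-109594549, minus strand: tggttcaaaccatgAGTCGAGc
Rtl1 site of miR-434-3p, chr12:109594565-109594586, minus strand: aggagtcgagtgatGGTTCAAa
Both arms of miR-434 were among the 7, and the whole hairpin shows where they lie (arms in capitals). The arms share a run of 9 bases, uuugaacca, well short of a whole arm.
Mir434: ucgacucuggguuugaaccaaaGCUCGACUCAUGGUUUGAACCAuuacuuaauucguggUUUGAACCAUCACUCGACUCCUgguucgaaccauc
The miR-379/miR-410 part begins 114.5 kb further on. The hairpin of miR-379 lies at chr12:109709060-109709125 and that of miR-411 at chr12:109710175-109710256, 1.05 kb apart and between annotated genes. The hairpin of miR-382, at chr12:109733771-109733846, reaches into the start of an exon of the noncoding RNA Mirg, and that of miR-541, at chr12:109742409-109742498, lies in an intron of Mirg. The hairpins of miR-379 and miR-411 are shown with the counted arm in capitals.
Mir379: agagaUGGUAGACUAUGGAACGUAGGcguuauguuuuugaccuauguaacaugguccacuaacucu
Mir411: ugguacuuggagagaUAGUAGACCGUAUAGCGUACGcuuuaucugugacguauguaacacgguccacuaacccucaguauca

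The libraries were shallow. Totals were 75486, 99314 and 114331 counts for sEVs replicates 1, 2 and 3, against 47441, 92502 and 86637 for lEVs replicates 1, 2 and 3. lEVs replicate 1 was the shallowest and had a scaling factor (TMM, which aligns libraries on the bulk of their miRNAs) of 0.853, against 1.18 and 1.12 in the other lEVs libraries and 0.952 to 0.974 in sEVs. Of the marker lists, myeloid miRNAs took between 4.34% and 4.80% of the counts in sEVs and between 4.08% and 5.60% in lEVs. Mesenchymal miRNAs took between 3.59% and 4.25% in sEVs and between 2.05% and 3.48% in lEVs, endothelial miRNAs 8.24% to 8.60% in sEVs and 6.52% to 7.80% in lEVs, and lymphoid miRNAs 0.191% to 0.223% in sEVs and 0.0949% to 0.164% in lEVs. The summed shares of these 3 lists were higher in all sEVs than in all lEVs libraries, but each sum was mostly 1 miRNA: miR-143-3p held 80.7% of the mesenchymal, miR-126a-3p 88.8% of the endothelial and miR-150-5p 92.2% of the lymphoid counts. Their members did not all differ the same way. The mesenchymal miR-145a-5p had lower shares in all sEVs than in all lEVs libraries (a ratio of sEVs over lEVs of 0.498, adjusted p = 0.0592 by edgeR). Fractions overlapped in the unscaled shares of miR-143-3p, miR-214-3p, miR-126a-5p and miR-155-5p. With TMM factors miR-214-3p and miR-155-5p still overlapped, whereas miR-143-3p and miR-126a-5p were higher in all sEVs than in all lEVs libraries. By edgeR miR-143-3p was called higher in sEVs (a ratio of 1.57, adjusted p = 0.0231), as were miR-10b-5p (0.00367) and miR-150-5p (0.00268). No other miRNA of these 3 lists was called. Cartilage miRNAs took 1.09% to 1.18% in sEVs and 1.41% to 2.03% in lEVs, erythroid miRNAs 0.428% to 0.558% in sEVs and 0.525% to 0.740% in lEVs, and skeletal muscle miRNAs 1.67% to 2.00% in sEVs and 1.78% to 2.59% in lEVs, with no overlap between fractions for cartilage alone of these 3. The brain miRNA miR-124-3p and the liver miRNA miR-122-5p were at 0 in all 6 libraries, and miR-9-5p of the neural list, at most 0.00504% of a library, at 0 in at least 1. None of the lists marks bone cells as such. Every listed miRNA of the myeloid (3), mesenchymal (5), endothelial (2), lymphoid (2), cartilage (2) and skeletal muscle (3) lists was above 0 in all 6 libraries, as were 2 of the 3 erythroid ones. Whether these shares play a part in the differences below was not tested.

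The 7 miRNAs were a small part of the cargo, and a larger one in small vesicles. Their summed counts were 329, 409 and 447 over sEVs replicates 1, 2 and 3, against 126, 273 and 240 over lEVs replicates 1, 2 and 3. As shares these were 0.436% (95% Clopper-Pearson interval 0.390% to 0.485%), 0.412% (0.373% to 0.454%) and 0.391% (0.356% to 0.429%) of the counts in sEVs. In lEVs they were 0.266% (0.221% to 0.316%), 0.295% (0.261% to 0.332%) and 0.277% (0.243% to 0.314%). The intervals cover counting error only. No sEVs interval met an lEVs interval. The sEVs mean was 0.413% ± 0.0225 and the lEVs mean 0.279% ± 0.0149 (SD over 3 libraries each). In bulk vesicles, more vesicles that carry a miRNA and more copies per vesicle cannot be told apart, nor can the cells that released them. As shares of a library, these values also do not tell more of the 7 from less of other miRNAs.

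**Figure D1:**
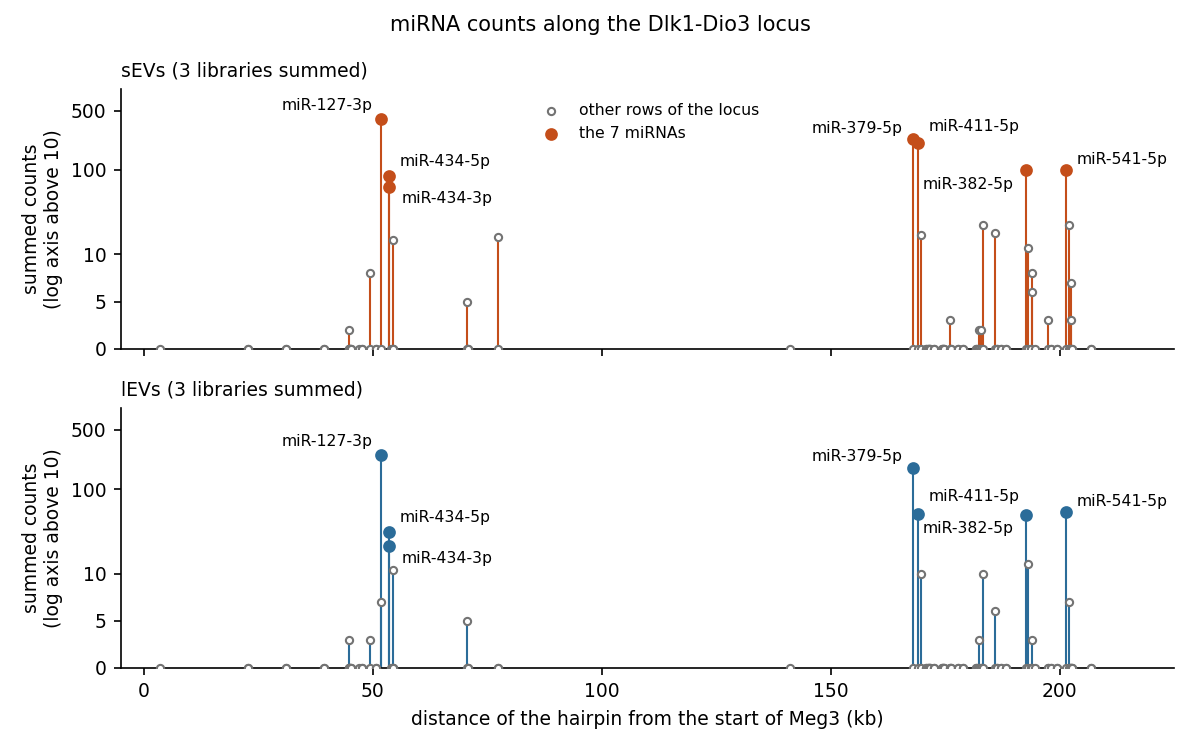
Counts of each miRNA row of the locus, summed over the 3 sEVs libraries (top) and the 3 lEVs libraries (bottom), against the distance of its hairpin from the start of Meg3 in kb; the vertical axis is linear up to 10 and logarithmic above, and filled points are the 7 miRNAs. miR-127-3p stood highest in both fractions (403 summed counts in sEVs and 254 in lEVs), and miR-411-5p stood near miR-379-5p in sEVs (205 and 230) but well under it in lEVs (51 and 179). miR-1247 lies beyond the right edge.

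The rest of the locus was near the lower limit of these libraries. Of 115 rows from the 61 hairpins annotated between Dlk1 and Dio3, 28 were above 0 in any library and 87 were at 0 throughout. The 7 are exactly the rows that passed the filter on low counts, which asks for 10 counts at the median depth (112 CPM, a count scaled to a fixed library total) in at least 3 libraries. The other 108 did not pass. The highest of these others were miR-370-3p, with 0, 16 and 0 counts in sEVs replicates 1, 2 and 3 and 0 in each lEVs library, and miR-1247-5p, next to Dio3, with 0, 14 and 7 counts in sEVs and 0 in each lEVs library. miR-300-3p had 0, 9 and 13 counts in sEVs and 0, 5 and 5 in lEVs, and miR-381-3p had 2, 6 and 10 in sEVs and 0, 4 and 2 in lEVs. In all, the rows outside the 7 held 32, 76 and 84 counts in sEVs and 0, 38 and 43 counts in lEVs, so lEVs replicate 1 had none of them. The table holds no value of 1 in any library, so it is not known whether a 0 stands for none or for a single count, and zeros were given no upper limit. The opposite arm, miR-127-5p, had 0 counts in each sEVs library and 0, 4 and 3 in lEVs, and the opposite arms of miR-379, miR-411, miR-382 and miR-541 were at 0 in all 6. miR-434 alone among the 6 hairpins was represented by both arms in every library.

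The only contrast of the design compares small with large vesicles. Across the 145 miRNAs tested, 17.2% were called at an adjusted p under 0.05 in either direction, 8.28% as higher and 8.97% as lower in sEVs (quasi-likelihood test of edgeR, p-values adjusted by Benjamini-Hochberg over all 145). Of the 7, both arms of miR-434 and miR-411-5p rose in sEVs, 0 fell, and miR-127-3p, miR-379-5p, miR-382-5p and miR-541-5p did not pass. Log2 fold changes of sEVs over lEVs were above 0 for all 7, as for 47.6% of the tested miRNAs. Their median was 0.77, against -0.04 over all tested. Levels of all 3 sEVs libraries lay above all 3 lEVs libraries for 5 of the 7, as for 22.1% of the tested miRNAs. Because the 7 were named with earlier results of these libraries known, and because the filter favours rows that are high in at least 1 fraction, these counts are a description of the 7 and no test of the locus.

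The count of 3 rested on single libraries. Without lEVs replicate 1 the calls numbered 6, with miR-379-5p the exception. Calls over all miRNAs rose as well, from 25 of 145 tested to 52 of 151. Those higher in sEVs rose from 12 to 29. Without lEVs replicate 2 or lEVs replicate 3 only miR-411-5p of the 7 passed. Over all miRNAs these 2 fits called 22 of 148 and 16 of 152 tested. DESeq2, in which 7.56% of the miRNAs with an adjusted p were called higher in sEVs, also called miR-411-5p alone. All 7 log2 fold changes kept their sign under every alternative in which they were tested.

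The Rtl1-antisense miRNAs come first in the locus. miR-127-3p, which guides cleavage of Rtl1 mRNA, was the most abundant of the 7 in both fractions. Its counts were 111, 151 and 141 over sEVs replicates 1, 2 and 3, against 44, 107 and 103 over lEVs replicates 1, 2 and 3. In CPM with TMM factors its level was 1539, 1604 and 1272 in sEVs and 1092, 987 and 1069 in lEVs. All sEVs levels lay above all lEVs levels, with sEVs replicate 3 nearest to lEVs. sEVs averaged 1472 ± 176 CPM and lEVs 1049 ± 55.3 CPM (SD, n = 3 libraries each), and the log2 fold change was 0.49 with an SE of 0.15 (adjusted p = 0.0538 by edgeR). The adjusted p fell under 0.05 without lEVs replicate 1 (0.0219), without sEVs replicate 3 (0.0482), with a filter at a mean of 100 CPM (0.0469) and with zeros read as 1 (0.0417), and ranged up to 0.241 under the other alternatives.

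miR-434-5p, the 5′ arm of the neighbouring hairpin, had 30, 24 and 30 counts in sEVs and 5, 13 and 13 counts in lEVs. These were 416, 255 and 271 CPM in sEVs and 124, 120 and 135 CPM in lEVs. The fractions did not overlap, and sEVs replicate 1 was highest. sEVs averaged 314 ± 88.8 CPM and lEVs 126 ± 7.73 CPM (SD, n = 3 libraries each), and the log2 fold change was 1.27 with an SE of 0.30 (adjusted p = 0.0211 by edgeR).

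miR-434-3p, the other arm, had 14, 18 and 31 counts in sEVs and 4, 9 and 8 counts in lEVs, or 194, 191 and 280 CPM in sEVs and 99.3, 83.0 and 83.0 CPM in lEVs. Again the fractions did not overlap, but here sEVs replicate 3 was highest. sEVs averaged 222 ± 50.2 CPM and lEVs 88.5 ± 9.40 CPM (SD, n = 3 libraries each), and the log2 fold change was 1.37 with an SE of 0.32 (adjusted p = 0.0211 by edgeR). Both arms rested on few counts. With all lEVs libraries under 112 CPM, miR-434-3p passed the filter through its sEVs libraries alone, so it was tested only because it was high there. Among lEVs the observed spread of the arms was smaller than counting error allows for: the coefficient of variation was 6.12% for miR-434-5p and 10.6% for miR-434-3p, where counting alone gives 34.2% and 41.8%. The SDs of these lEVs levels are thus below their counting error. The call was lost in DESeq2 for miR-434-5p (adjusted p = 0.146) and miR-434-3p (0.204), and when lEVs replicate 2 (0.0822 and 0.0989) or lEVs replicate 3 (0.0900 and 0.108) was left out. That of miR-434-3p was also lost without sEVs replicate 3 (adjusted p = 0.103) and with the replicate number as a block (0.0636), and it had too few counts to be tested after thinning.

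Ratios between the arms overlapped between fractions. The ratio of miR-434-3p to miR-434-5p counts was 0.467, 0.750 and 1.03 in sEVs replicates 1, 2 and 3, against 0.8, 0.692 and 0.615 in lEVs replicates 1, 2 and 3. The lowest and the highest ratio were both in sEVs. The mean log2 ratio (0.5 added to each count) was -0.48 ± 0.56 over sEVs and -0.49 ± 0.19 over lEVs libraries (SD, n = 3 per fraction). A two-sided exact permutation test gave p = 1, and 1 when adjusted over the 2 ratios tested. In this test 3 against 3 libraries cannot give a p under 0.1.

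**Figure D2:**
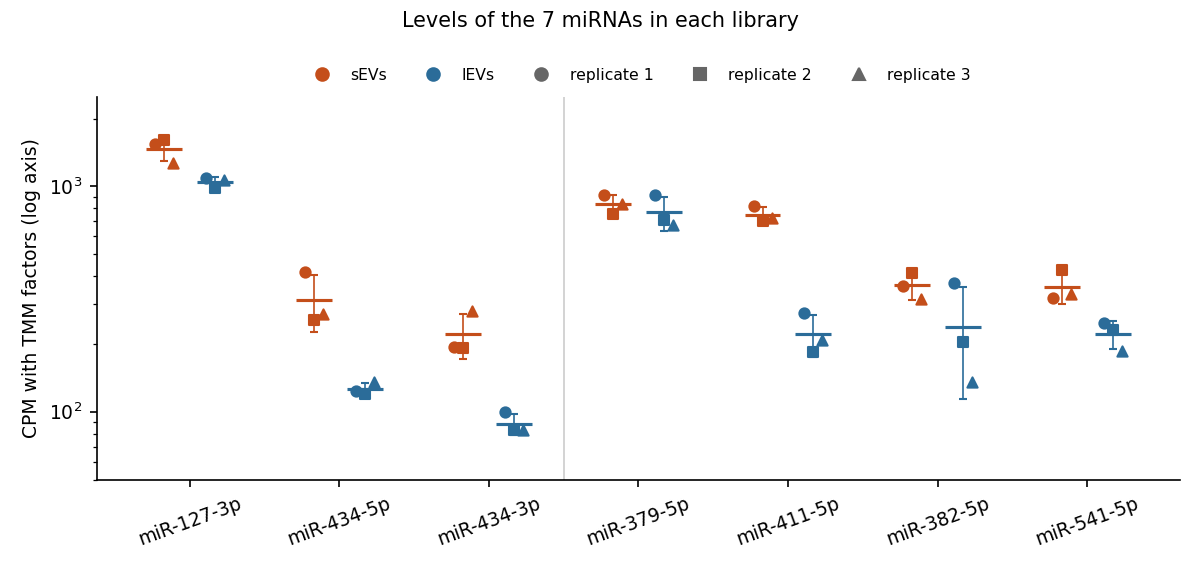
Level of each miRNA in every library, in CPM with TMM factors on a log axis, in order of position along the chromosome; the grey line separates the Rtl1-antisense miRNAs (left) from those of the miR-379/miR-410 part (right), bars are the mean and SD of 3 libraries, and marker shapes are replicates. The fractions are apart for miR-127-3p, both miR-434 arms, miR-411-5p and miR-541-5p and overlap for miR-379-5p and miR-382-5p, where lEVs replicate 1 is the highest lEVs library.

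Among the miRNAs of the miR-379/miR-410 part, the first hairpin of the polycistron gave miR-379-5p. It had 66, 71 and 93 counts in sEVs and 37, 77 and 65 counts in lEVs. Its levels were 915, 754 and 839 CPM in sEVs and 919, 710 and 675 CPM in lEVs. The fractions overlapped, and the highest level of all was that of lEVs replicate 1. sEVs averaged 836 ± 80.5 CPM and lEVs 768 ± 132 CPM (SD, n = 3 libraries each), and the log2 fold change was 0.15 with an SE of 0.17 (adjusted p = 0.509 by edgeR). It was called under none of the alternatives.

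miR-411-5p, from the next hairpin, had the second largest log2 fold change of all 145 miRNAs. It had 59, 66 and 80 counts in sEVs, against 11, 20 and 20 in lEVs. In CPM these were 818, 701 and 722 in sEVs and 273, 184 and 208 in lEVs. The lowest sEVs level was far above the highest lEVs level. sEVs averaged 747 ± 62.5 CPM and lEVs 222 ± 46.0 CPM (SD, n = 3 libraries each), 3.50-fold higher in sEVs, and the log2 fold change was 1.81 with an SE of 0.20 (adjusted p = 0.000843 by edgeR). It was called under all 17 alternatives, with log2 fold changes between 1.64 and 1.91 and adjusted p-values up to 0.00822. Its observed spread was below counting error in both fractions. The coefficient of variation was 8.36% in sEVs and 20.7% in lEVs, against 12.3% and 26.9% from counting alone.

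miR-382-5p, whose hairpin overlaps a Mirg exon, had 26, 39 and 35 counts in sEVs and 15, 22 and 13 counts in lEVs. These were 361, 414 and 316 CPM in sEVs and 372, 203 and 135 CPM in lEVs. lEVs replicate 1 lay within the sEVs range while the other lEVs libraries lay below it. The coefficient of variation among lEVs was 51.7%, against 27.3% from counting alone. Its log2 fold change was 0.77 with an SE of 0.34 (adjusted p = 0.135 by edgeR), and without lEVs replicate 1 it was 1.07 (edgeR adjusted p = 0.0085).

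miR-541-5p, the last of the 7 in the locus, had 23, 40 and 37 counts in sEVs and 10, 25 and 18 counts in lEVs, or 319, 425 and 334 CPM in sEVs and 248, 231 and 187 CPM in lEVs. The fractions did not overlap. Its log2 fold change was 0.72 with an SE of 0.23 (adjusted p = 0.061 by edgeR), and it passed only without lEVs replicate 1 (edgeR adjusted p = 0.0397).

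**Figure D3:**
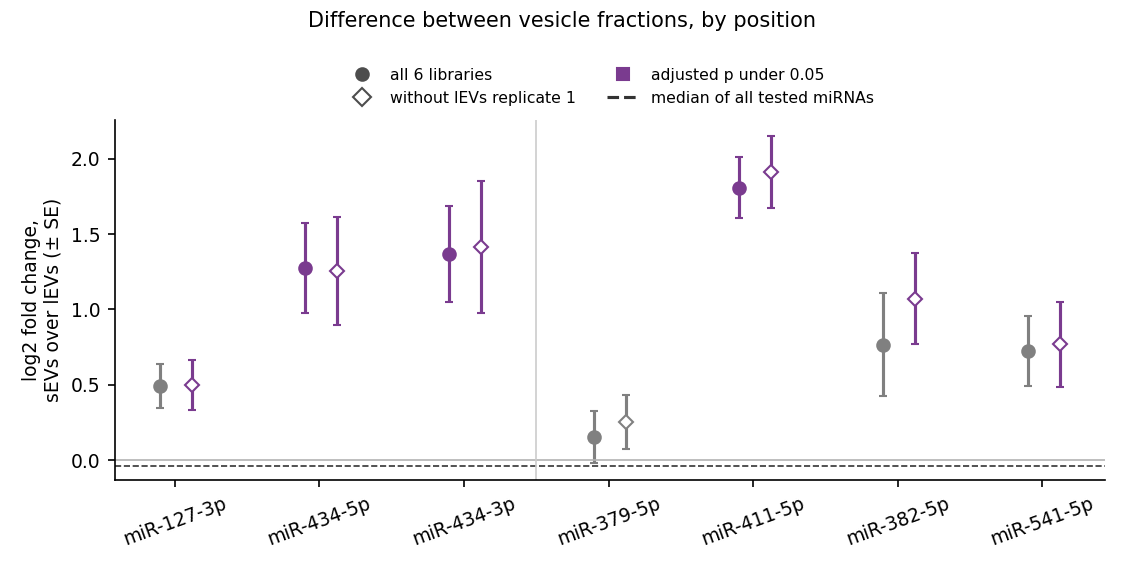
Log2 fold change of sEVs over lEVs (edgeR, bars are SE) for each miRNA in order of position, with all 6 libraries (circles) and without lEVs replicate 1 (diamonds); purple marks an adjusted p under 0.05 over all miRNAs tested, and the dashed line is the median of all tested miRNAs (-0.04). The values run between 0.15 for miR-379-5p and 1.81 for its neighbour miR-411-5p, and 6 diamonds are purple, against 3 circles. Over all miRNAs tested, calls rose from 25 of 145 with all libraries to 52 of 151 without lEVs replicate 1.

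Within each library, the ratio of the neighbours miR-411-5p and miR-379-5p separated the fractions without any scaling between libraries. It was 0.894, 0.930 and 0.860 in sEVs replicates 1, 2 and 3, so the counts of both miRNAs were close. In lEVs replicates 1, 2 and 3 it was 0.297, 0.260 and 0.308. The mean log2 ratio was -0.16 ± 0.06 over sEVs and -1.77 ± 0.13 over lEVs libraries (SD, n = 3 per fraction), a difference of 1.61. Counting alone gives a coefficient of variation in sEVs of 12.3% for miR-411-5p and 11.6% for miR-379-5p, and in lEVs of 26.9% and 14.3%. The ratio carries the counting error of both, which these SDs understate. The pair was chosen with the log2 fold changes of both miRNAs known, so its test is not independent of them. Ratios without overlap between fractions were also found for 45.7% of all pairs of tested miRNAs. The exact two-sided permutation test gave p = 0.1, the smallest that 3 against 3 libraries allow, and 0.2 when adjusted over the 2 ratios tested. The difference was between 1.53 and 1.65 with any 1 library left out. lEVs replicate 1, which stood apart in several levels, lay within the range of the other lEVs libraries here. As shares of the counts of the 7, miR-411-5p made up 17.3% ± 1.03 of sEVs and 8.13% ± 0.724 of lEVs counts, and miR-379-5p 19.4% ± 1.81 of sEVs and 28.2% ± 1.14 of lEVs counts (SD over 3 libraries).

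The order of levels was the same at the top in both fractions, with miR-127-3p first and miR-379-5p second. In sEVs miR-411-5p came next and overlapped miR-379-5p. miR-382-5p and miR-541-5p followed and overlapped each other, then miR-434-5p, which overlapped both, and miR-434-3p, which overlapped miR-434-5p. In lEVs miR-382-5p, miR-541-5p and miR-411-5p overlapped one another at means of 237, 222 and 222 CPM, and both miR-434 arms were last. miR-434-3p was below all libraries of the other 6, and the highest level of miR-434-5p equalled the lowest of miR-382-5p, 135 CPM, with 13 counts of each in lEVs replicate 3. These are counts per mature miRNA, and sequences differ in how well they are captured in a library, so the order of different miRNAs is one of counts. Among all tested miRNAs, miR-127-3p ranked 59 by mean CPM and miR-434-3p 127.

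The Rtl1-antisense miRNAs and those of the miR-379/miR-410 part were compared by their summed counts. The Rtl1-antisense part held 155, 193 and 202 counts in sEVs and 53, 129 and 124 counts in lEVs, and the miR-379/miR-410 part held 174, 216 and 245 counts in sEVs and 73, 144 and 116 counts in lEVs. As shares of the library the first was 0.192% ± 0.0145 for sEVs and 0.131% ± 0.0172 for lEVs, and the second 0.221% ± 0.00859 for sEVs and 0.148% ± 0.0121 for lEVs (SD over 3 libraries). Both parts thus had larger shares in sEVs, with no overlap between fractions. The log2 ratio of the first to the second was -0.17, -0.16 and -0.28 in sEVs and -0.46, -0.16 and 0.10 in lEVs. The sEVs values lay inside the lEVs range, and the means were -0.20 ± 0.07 for sEVs and -0.17 ± 0.28 for lEVs (SD over 3 libraries).

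The comparison of parts changed with the most abundant member. Without miR-127-3p, the log2 ratio of the miR-434 arms to the miR-379/miR-410 part was -1.98, -2.36 and -2.01 in sEVs and -3.02, -2.71 and -2.47 in lEVs. The fractions then no longer overlapped, with means of -2.12 ± 0.21 for sEVs and -2.73 ± 0.28 for lEVs (SD over 3 libraries). The first part is then miR-434 alone, with lEVs counts of 5, 13 and 13 for miR-434-5p and 4, 9 and 8 for miR-434-3p. miR-434-3p passed the filter through its sEVs libraries alone. miR-434-5p had only 2 lEVs libraries at or above the filter, which uses CPM without TMM factors, so it also needed its sEVs libraries to pass. This gap is thus no support for a difference between the parts. The median log2 fold change was 1.27 over the 3 Rtl1-antisense miRNAs and 0.74 over the 4 of the miR-379/miR-410 part, but each part held both a small and a large value: 0.49 and 1.37 in the first, 0.15 and 1.81 in the second. Of the 21 pairs that the 7 can form, 9 had within-library ratios that did not overlap between fractions, a share of pairs close to the 45.7% over all pairs of tested miRNAs. Of the 6 pairs with miR-411-5p, 4 did not overlap, and the count was also 4 of 6 for miR-379-5p, the pair of both included in each.

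**Figure D4:**
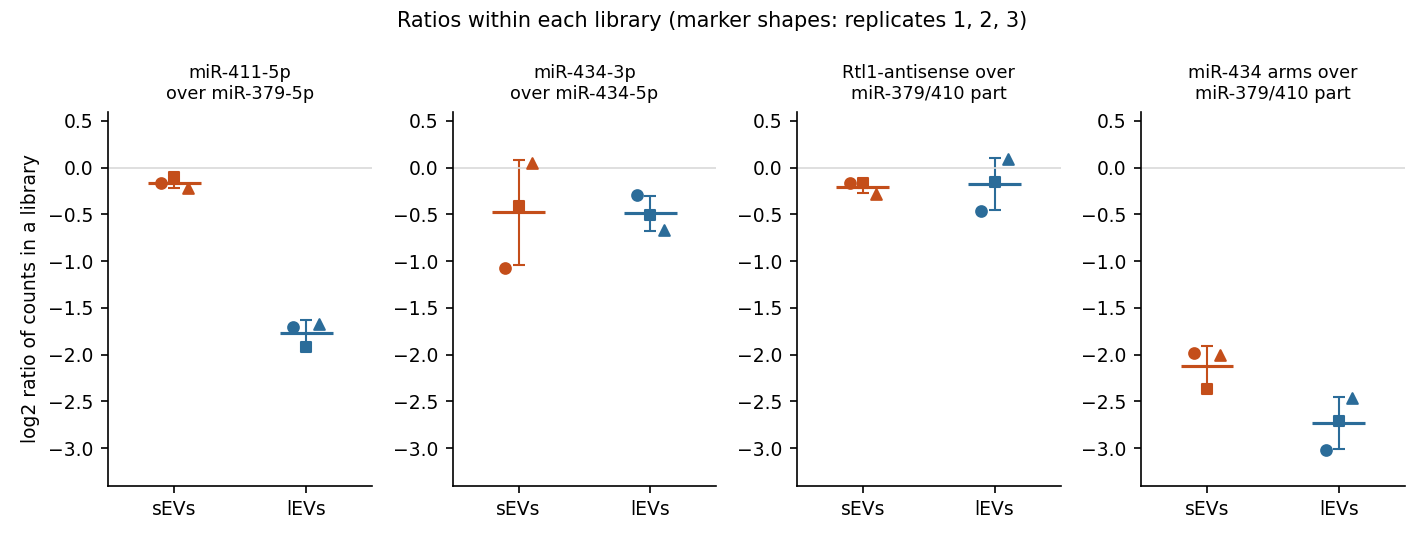
Log2 ratios of counts within each library for sEVs and lEVs, with mean and SD of 3 libraries; 0.5 was added to each count in the 2 left panels. miR-411-5p over miR-379-5p separates the fractions (mean -0.16 in sEVs and -1.77 in lEVs), the ratio of the miR-434 arms overlaps (mean -0.48 in sEVs and -0.49 in lEVs), and the part ratio overlaps with miR-127-3p but not without it.

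The miRNAs outside the 7 whose levels followed miR-127-3p most closely over the 6 libraries were let-7d-3p, miR-150-5p and miR-5126, with Pearson correlations of log2 CPM of 0.961, 0.939 and 0.922. For the summed level of the 7 they were miR-125a-5p, miR-5126 and miR-126a-3p, at 0.996, 0.987 and 0.974. The 6 points are 3 libraries of each of 2 fractions and share their scaling, so these values mostly describe a difference between fractions in common. Of these miRNAs, all but miR-126a-3p (edgeR adjusted p = 0.126) were called higher in sEVs.

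**Figure D5:**
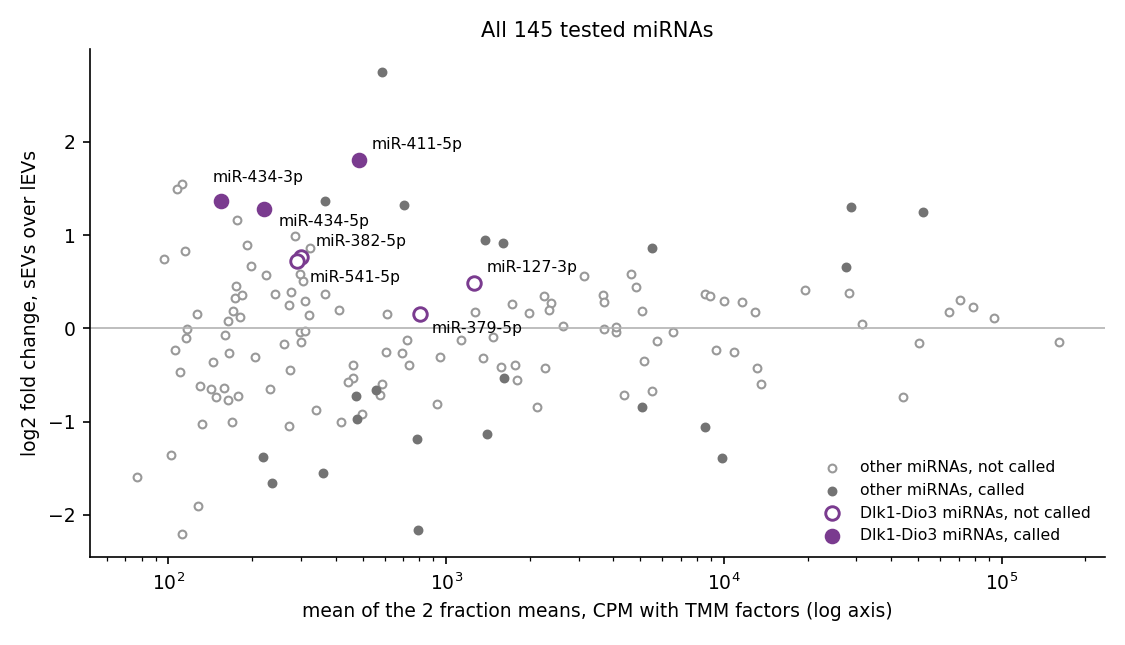
Log2 fold change of sEVs over lEVs against mean level (CPM with TMM factors, log axis) for all 145 miRNAs tested; large purple points are the 7 miRNAs of the locus, and filled points have an adjusted p under 0.05. The 7 lie above 0 at low to middle levels, with miR-411-5p second from the top.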

How the data were processed

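The table deposited by the authors gives raw counts, 1 column per library and 1 row per mature miRNA or joined group of them. QIAseq miRNA libraries, from RNA isolated with a miRNeasy kit, were read on a MiSeq in single reads of 75 bases, per the labels' protocols. The submitters' processing notes name GRCm38, R 4.2.2 and DESeq2 1.38.2. For the aligner and for how strand and molecular identifiers were handled, nothing is stated in those sources. If strand was ignored, fragments of Rtl1 mRNA could be counted with miR-127 and miR-434.

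The test was edgeR 4.0.16 under R 4.3.3 (quasi-likelihood, TMM, filterByExpr defaults of 10 and 15 counts, no covariates), which kept 145 of 327 miRNAs above 0 and between 99.4% and 99.6% of each library's counts. SE is the absolute log2 fold change over the square root of F. Alternatives used DESeq2 1.42.0 and limma 3.58.1 (voom), other scalings and filters, thinning to 47441 counts, a replicate block and leaving out each library. Reading zeros as 1 was chosen after seeing the data. The miRNAs and lists were chosen with earlier results of these data known. Text values were given to the 7, to locus rows with at least 10 counts in a library, and to the 3 closest miRNAs by correlation. Opposite arms of the 7 and some miRNAs of the marker lists were also given values. Hairpins were placed with GENCODE M21 and RefSeq, both GRCm38.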

Additional observations from a re-analysis of the deposited data

How the results depend on the processing

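All 118 values of the 7 miRNAs under the 17 alternatives kept their sign, 104 on the same side of the threshold. Of the 7, 3 were called; this count was 1 in DESeq2 and between 1 (without lEVs replicate 2 or 3) and 6 (without lEVs replicate 1) with 1 library left out. Over all miRNAs the 25 calls became 53 without the filter on low counts, with 327 tested, and between 16 and 52 with 1 library left out. Library totals moved the median log2 fold change of all miRNAs to -0.19 and the split from 12 higher and 13 lower in sEVs to 11 and 24; the 7 then had a median of 0.62 and 3 calls. The share of the 7, 0.134 percentage points higher in sEVs, was 0.168 with all rows of the locus, 0.160 with TMM factors and 0.102 without miR-127-3p, and 0.122 to 0.145 with 1 library left out. The part ratio differed by -0.03 (log2), by 0.61 without miR-127-3p and by -0.17 to 0.11 with 1 library left out. The arm ratio of miR-434, which differed by 0.01, turned to -0.0038 with a pseudocount of 1 and ranged from -0.25 to 0.31 with 1 library left out, with sign changes without sEVs replicate 2 or 3 or lEVs replicate 3. The replicate numbers pair no samples by the labels, and same-numbered libraries correlated at -0.0683, 0.0624 and 0.371 in their deviations; with the replicate block 26 miRNAs and 2 of the 7 were called. With 4 to 31 counts a library, depth limits what can be said of miR-434.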
